A study of Mus musculus with 48 samples.

Results

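CD209 proteins and the macrophage galactose lectins are cell-surface receptors of the C-type lectin family, carried by macrophages and dendritic cells. The 7 mouse genes described here are Cd209a, Cd209b, Cd209d, Cd209e, Cd209f, Mgl2 and Clec10a, out of 55487 genes in each deposited table. They were chosen by their measured change with cisplatin, with results of these data known: that change differed between the tumor-draining lymph node (TDLN) and the other lymph node (LN). Their values by treatment and node are therefore given as a description with no test. The averages over treatments and nodes, another contrast than the one that chose the genes, were tested between cell types. They rest on the same libraries, so an extreme group can enter both.

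RNA was measured in myeloid cells sorted from digested lymph nodes of tumor-bearing mice, all labelled as wild type. Medullary sinus macrophages (MSM), subcapsular sinus macrophages (SSM), migratory dendritic cells (mDC) and resident dendritic cells (rDC) were each taken from the TDLN and the LN of mice given cisplatin (CIS), a DNA-crosslinking chemotherapy drug, or saline buffer (PBS). That makes 16 groups of 3 libraries. The labels give no age, dose or tumor line, do not say which site the LN drained, and do not name an animal for any library, so a p-value may measure technical spread only.

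Libraries held 6456456 to 10434248 counts in macrophages and 2002713 to 3842097 in 18 dendritic cell libraries. The other 6 dendritic cell libraries, those of mDC TDLN PBS and rDC LN PBS, held 10733509 to 15481059 counts. In 4 macrophage libraries the profile was that of the other label. These are replicate 2 of LN PBS under both labels, MSM TDLN CIS 1 and SSM TDLN CIS 3, and each correlated at most 0.747 with its own group and at least 0.989 with the other macrophage type over 7886 genes. These crossed libraries were kept under their labels, and marked where macrophage values are listed, with folds given with and without them where they enter. The migratory dendritic cell markers summed to 29078.7 to 36144.6 CPM (counts scaled to library size) in mDC and 845.4 to 1439.3 CPM in rDC, as the labels have it. The MSM LN CIS libraries carried little macrophage RNA, with the F4/80 gene Adgre1 at 3.64 ± 0.258 CPM (SD, n = 3) and the CD169 gene Siglec1 at 0.0954 ± 0.165 CPM. Marco, a scavenger receptor known from medullary macrophages, stood at 0.924 ± 0.377 CPM in MSM TDLN PBS and 19.6 ± 1.39 CPM in SSM TDLN PBS (SD, n = 3 each), and at 1.19 ± 0.629 CPM in MSM LN CIS and 608.1 ± 7.63 CPM in SSM LN CIS (SD, n = 3 each). The whole medullary macrophage list summed to 1130.4 to 1142.3 CPM in MSM TDLN PBS and 845.8 to 860.5 CPM in SSM TDLN PBS, but to 76.8 to 77.7 CPM in MSM LN CIS and 3945.9 to 4025.9 CPM in SSM LN CIS, so it was higher under the MSM label in the first pair and lower in the second.

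C-type lectins bind sugars through a calcium-dependent domain. Mouse CD209 proteins, the homologs of human DC-SIGN, bind mannose- and fucose-bearing glycans on microbes, and Cd209b encodes SIGN-R1, which takes up bacterial polysaccharides in marginal zone and medullary macrophages. Clec10a encodes MGL1 and Mgl2 encodes MGL2, which bind galactose and N-acetylgalactosamine, sugars exposed on many tumor glycoproteins, and both are known from dermal dendritic cells and tissue macrophages. Cd209a is known as a marker of monocyte-derived and type 2 dendritic cells.

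In GENCODE vM21 on build GRCm38, the 5 Cd209 genes lie on the minus strand of chromosome 8: Cd209a (ENSMUSG00000031494) at chr8:3743397-3748984, Cd209e (ENSMUSG00000040197) at chr8:3847965-3854309, Cd209d (ENSMUSG00000031495) at chr8:3871824-3878555, Cd209b (ENSMUSG00000065987) at chr8:3917655-3926844 and Cd209f (ENSMUSG00000051906) at chr8:4102787-4105835. Mgl2 (ENSMUSG00000040950) at chr11:70130329-70137550 and Clec10a (ENSMUSG00000000318) at chr11:70156197-70170834 neighbour each other on the plus strand. Of the 50-base windows in its transcripts, Cd209f shares 29.8% with Cd209g, while Mgl2 shares 12.2% with Clec10a and Clec10a 8.49% with Mgl2. Read counts of these 3 genes can be split with the paralog, so their levels are uncertain. Cd209a, Cd209b, Cd209d and Cd209e share no such window with another gene.

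Promoters are shown for 4 genes whose levels went together or apart in dendritic cells: Cd209a and Cd209e, which had the same direction in mDC, Cd209b, which had the opposite one, and Mgl2, which stood with Cd209a from another chromosome. The sequences are RefSeq's for assembly GRCm38.p6, from 250 bases before to 50 bases after the start base, 5′ to 3′ on the gene's strand, at chr8:3748935-3749234, chr8:3854237-3854536, chr8:3926792-3927091 and chr11:70130107-70130406. 6 of the 7 genes matched that table, without Clec10a. Capitals mark matches, on either strand, to 4 motifs: TATAAA (the TATA box), GAGGAA (the core of PU.1 sites), TTCNNNNGAA (a STAT6 site) and ATAAAAGCTGT, the longest run that the Cd209a, Cd209e and Cd209b promoters share, picked after seeing the sequences.
Cd209a: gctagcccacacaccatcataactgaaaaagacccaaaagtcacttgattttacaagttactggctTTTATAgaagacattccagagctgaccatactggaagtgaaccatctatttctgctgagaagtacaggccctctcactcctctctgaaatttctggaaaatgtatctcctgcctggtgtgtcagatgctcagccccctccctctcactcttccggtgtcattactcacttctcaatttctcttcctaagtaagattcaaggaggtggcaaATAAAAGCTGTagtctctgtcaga
Cd209e: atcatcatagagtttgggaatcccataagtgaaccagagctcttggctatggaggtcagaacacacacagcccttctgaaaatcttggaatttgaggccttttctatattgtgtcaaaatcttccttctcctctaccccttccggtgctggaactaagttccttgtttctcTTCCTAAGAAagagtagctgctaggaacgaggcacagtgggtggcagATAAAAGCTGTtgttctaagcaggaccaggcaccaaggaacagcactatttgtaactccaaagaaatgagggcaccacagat
Cd209b: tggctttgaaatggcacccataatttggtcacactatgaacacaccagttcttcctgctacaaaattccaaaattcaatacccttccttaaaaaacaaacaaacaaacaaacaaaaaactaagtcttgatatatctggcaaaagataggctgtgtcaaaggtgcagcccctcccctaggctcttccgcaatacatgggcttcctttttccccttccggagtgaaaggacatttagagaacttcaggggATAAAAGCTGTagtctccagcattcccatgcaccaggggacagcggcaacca
Mgl2: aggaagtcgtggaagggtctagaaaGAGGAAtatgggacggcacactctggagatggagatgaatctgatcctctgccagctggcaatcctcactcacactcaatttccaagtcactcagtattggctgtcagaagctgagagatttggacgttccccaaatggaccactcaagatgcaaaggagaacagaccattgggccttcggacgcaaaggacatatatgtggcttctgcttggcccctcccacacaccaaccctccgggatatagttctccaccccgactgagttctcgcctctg
With positions counted from 0 at the start base, ATAAAAGCTGT lies at 26 to 36 in Cd209a, -32 to -22 in Cd209e and -2 to 8 in Cd209b. It occurs in 9 of 32851 RefSeq promoters of that length (0.0274%). That count includes the 3 promoters that defined the run, and a run of 11 fixed bases is rare by its length. The other motifs are common, with TATAAA in 13.6%, GAGGAA in 28.3% and TTCNNNNGAA in 6.95% of promoters, and no 2 matches overlapped in the promoters shown. The shared run is thus held by genes with opposite directions in mDC. A match describes letters, not binding.

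**Figure D1:**
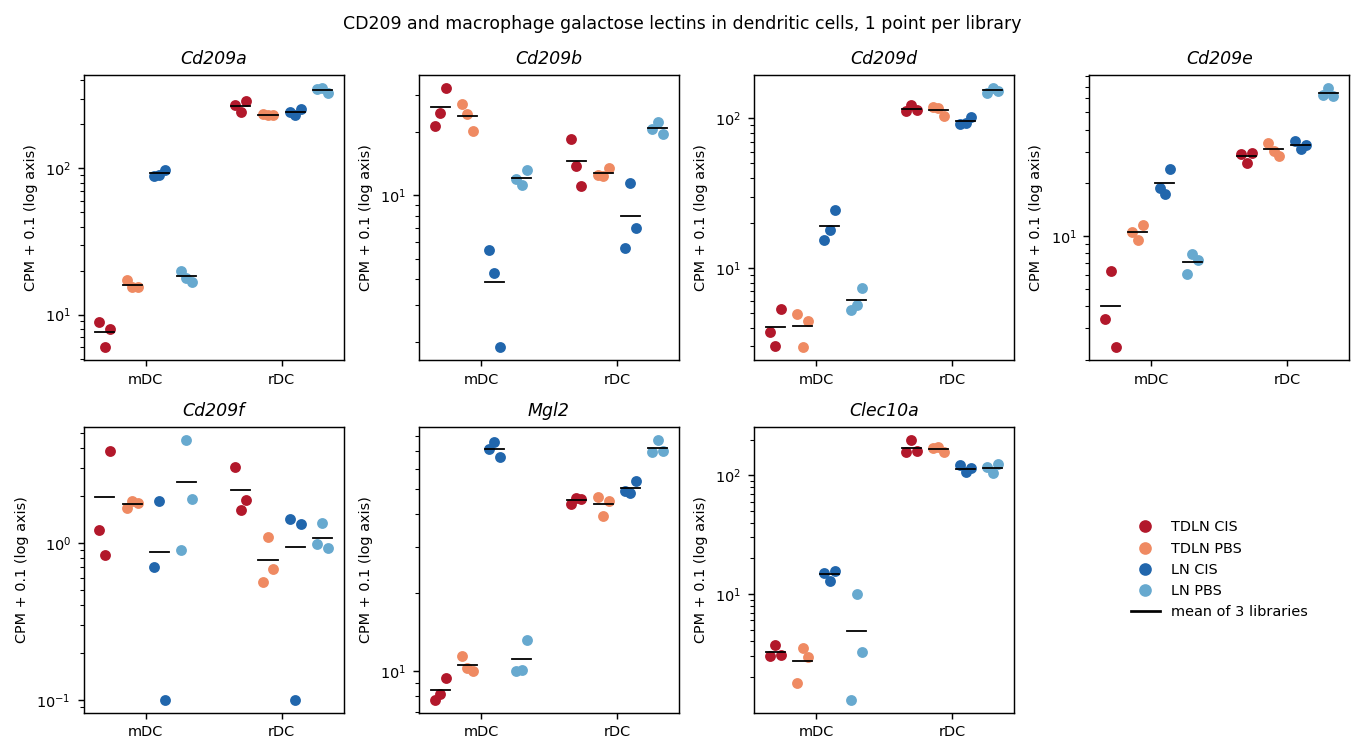
Level of the 7 lectin genes in each dendritic cell library (CPM with 0.1 added, log axis), by cell type, node and treatment, with points for the 3 libraries of a group and bars for their mean. The rDC points of Cd209a, Cd209d, Cd209e and Clec10a lie above every mDC point, and in mDC the LN CIS points of Cd209a and Mgl2 stand apart from the other mDC groups.

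In migratory dendritic cells 5 of the 7 lectin genes were at their highest in the LN of cisplatin-treated mice, while Cd209b was at its lowest there. Cd209a had 88.6, 90.2 and 98.0 CPM in mDC LN CIS, against 19.9, 17.8 and 16.7 CPM in LN PBS. In the TDLN it had 8.76, 5.86 and 7.83 CPM with cisplatin, against 17.1, 15.4 and 15.4 CPM with PBS. Every cisplatin library was thus above every PBS library in the LN and below every one in the TDLN. The fitted log2 fold change (± SE) of cisplatin over PBS was 2.30 ± 0.13 in the LN and -0.95 ± 0.17 in the TDLN, and their difference, TDLN minus LN, was -3.25 ± 0.22. In the LN, 11.0% of all genes passed an adjusted p of 0.05 in this comparison, in the TDLN 27.3% and for the difference between nodes 15.6%. These bulk libraries cannot tell fewer cells of a type from less RNA per cell.

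Mgl2, the MGL2 gene, had the largest fold of the 6 fitted genes in the mDC LN. It had 71.5, 75.9 and 66.2 CPM in LN CIS, against 9.96, 9.99 and 13.1 CPM in LN PBS (log2 2.65 ± 0.16). In the TDLN it had 7.67, 8.06 and 9.32 CPM in CIS, against 11.3, 10.2 and 9.94 CPM in PBS (log2 -0.19 ± 0.18). The TDLN groups lay close together without overlapping, and the TDLN value turned to 0.21 once the deep libraries were thinned to 3000000 counts.

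Cd209e, another CD209 homolog, went the way of Cd209a. It had 18.6, 17.1 and 23.7 CPM in mDC LN CIS, against 5.97, 7.77 and 7.21 CPM in LN PBS. In the TDLN it had 3.29, 6.22 and 2.24 CPM in CIS, against 10.4, 9.33 and 11.5 CPM in PBS. The groups did not overlap in either node and the order was opposite, with log2 1.46 ± 0.26 in the LN and -1.27 ± 0.27 in the TDLN.

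Cd209d, a further CD209 homolog, had groups that stood apart in the LN and overlapped in the TDLN. It had 15.3, 17.8 and 24.2 CPM in mDC LN CIS, against 5.18, 5.55 and 7.21 CPM in LN PBS (log2 1.61 ± 0.29). In the TDLN it had 3.65, 2.93 and 5.22 CPM in CIS, against 4.80, 2.85 and 4.32 CPM in PBS (log2 0.13 ± 0.32). Those TDLN groups overlapped, and the value was -0.13 without mDC TDLN CIS 3.

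Clec10a, the MGL1 gene, was low in mDC. It had 15.0, 12.9 and 15.7 CPM in LN CIS, against 1.19, 9.99 and 3.16 CPM in LN PBS (log2 1.68 ± 0.41). Library LN PBS 2 stood above the other 2 of its group, and without it the fold was 2.71. In the TDLN the 3 values in CIS were 2.92, 3.66 and 2.98 CPM, against 1.67, 3.40 and 2.85 CPM in PBS, and the groups overlapped.

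Cd209b, the SIGN-R1 gene, had the opposite direction in the mDC LN. It had 5.39, 4.18 and 1.79 CPM in LN CIS, against 11.9, 11.1 and 13.1 CPM in LN PBS (log2 -1.63 ± 0.32). In the TDLN it had 21.2, 24.5 and 32.4 CPM in CIS, against 26.9, 24.3 and 20 CPM in PBS (log2 0.27 ± 0.17). The TDLN groups overlapped. Cd209f was between 0 and 4.44 CPM in all 12 mDC libraries, below the count filter of this fit, and no fold is given.

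In the mDC LN the CIS and PBS groups of 6 of 6 fitted genes did not overlap (5 higher, 1 lower, median log2 1.65, against -0.01 over all genes). In the TDLN this held for 3 of 6, Cd209a, Cd209e and Mgl2 (median -0.03, against -0.01). Overlap was not counted over all genes. An unadjusted edgeR p under 0.05 was reached by 3038 of 12519 genes in the LN and 4779 in the TDLN. Markers of other cells moved with the LN values. The list of 12 macrophage genes, which holds no C-type lectin, summed to 1159.3 to 1224.5 CPM in mDC LN CIS and 722.1 to 782.9 CPM in LN PBS. The monocyte list summed to 53.3 to 60.2 CPM in CIS and 24.4 to 34.7 CPM in PBS, the type 2 dendritic cell list to 652.4 to 698.2 CPM in CIS and 530.7 to 554.8 CPM in PBS, and the B cell list to 321.4 to 366.5 CPM in CIS and 151.4 to 181.4 CPM in PBS. Their part in the lectin values was not tested.

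**Figure D2:**
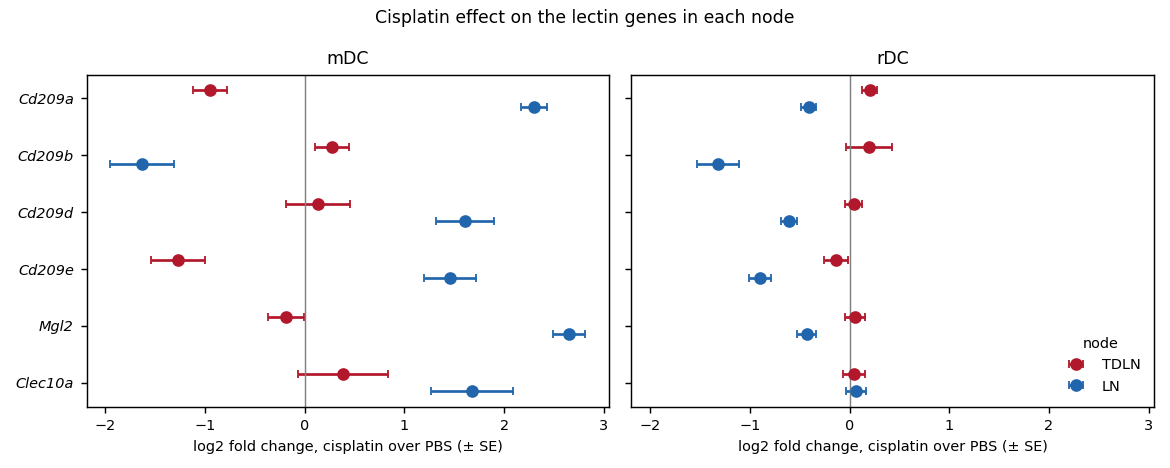
Fitted log2 fold change of cisplatin over PBS (± SE, 3 against 3 libraries) for the 6 fitted lectin genes in mDC and rDC, in the TDLN (red) and the LN (blue). In mDC the LN values run from -1.63 for Cd209b to 2.65 for Mgl2, while in rDC the LN values of 5 genes lie between -1.32 and -0.41 and the TDLN values near 0.

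In resident dendritic cells cisplatin went with lower levels in the LN and with little difference in the TDLN. Cd209a had 244.3, 232.8 and 255.3 CPM in rDC LN CIS, against 348.4, 357.6 and 326.7 CPM in LN PBS (log2 -0.41 ± 0.074). In the TDLN it had 270.3, 242.5 and 287.9 CPM in CIS, against 234.4, 231.0 and 231.1 CPM in PBS (log2 0.20 ± 0.077). The groups overlapped in neither node. Cd209a was the 1 of 6 fitted genes whose TDLN groups did not overlap, and 1 of 5 of 6 in the LN. Overlap was not counted over all genes. By the stricter measure of an adjusted p under 0.05, 1.01% of all genes passed in the TDLN and 17.9% in the LN. An unadjusted edgeR p under 0.05 was reached by 1324 of 14023 genes in the TDLN and 4305 in the LN.

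Cd209d had 91.8, 92.7 and 101.4 CPM in rDC LN CIS, against 148.3, 160.4 and 152.5 CPM in LN PBS (log2 -0.61 ± 0.082). Cd209e had 34.3, 30.9 and 32.6 CPM in LN CIS, against 62.9, 69.0 and 61.8 CPM in LN PBS (log2 -0.90 ± 0.11). Mgl2 had 49.3, 48.2 and 53.9 CPM in LN CIS, against 69.2, 77.3 and 70.1 CPM in LN PBS (log2 -0.43 ± 0.094). In these 3 genes every LN CIS library lay below every LN PBS library. Cd209b, with 5.54, 11.3 and 6.86 CPM in LN CIS and 20.5, 22.3 and 19.4 CPM in LN PBS, had the largest fold of the 6 fitted genes in this comparison (log2 -1.32 ± 0.21). Its cisplatin value in the LN was below 0 in both dendritic cell types, whereas those of Cd209a, Cd209d, Cd209e and Mgl2 were above 0 in mDC and below 0 in rDC.

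Clec10a was the exception, with 121.4, 106.3 and 114.2 CPM in rDC LN CIS and 118.0, 104.9 and 124.7 CPM in LN PBS (log2 0.06 ± 0.10). It differed by node instead, with 155.8, 198.8 and 159.1 CPM in TDLN CIS and 169.9, 173.4 and 158.3 CPM in TDLN PBS, all above every LN library. Beside this, the plasmacytoid dendritic cell list summed to 3516.4 to 4268.5 CPM in rDC TDLN CIS and 3667.2 to 3911.2 CPM in TDLN PBS, against 2302.1 to 2430.4 CPM in LN CIS and 2192.9 to 2370.3 CPM in LN PBS. The type 2 dendritic cell list summed to 1238.4 to 1329.5 CPM in TDLN CIS and 1357.5 to 1397.2 CPM in TDLN PBS. In the LN it summed to 859.9 to 900.5 CPM in CIS and 1024.0 to 1093.1 CPM in PBS. The type 1 dendritic cell and monocyte lists were likewise higher in every TDLN library, and the B cell list was lower. The part of these lists was not tested. In the TDLN the rDC folds of the genes other than Cd209a lay between -0.14 ± 0.12 for Cd209e and 0.19 ± 0.23 for Cd209b. The difference between nodes, for which 5.31% of all genes passed, was above 0 for 5 of the 6 genes, from 0.48 ± 0.14 for Mgl2 to 1.5 ± 0.31 for Cd209b, and -0.02 for Clec10a. The median over the 6 genes was 0.62, against -0.02 over all genes. Beside these values, the macrophage list summed to 2321.9 to 2428.6 CPM in rDC LN CIS and 3062.1 to 3189.5 CPM in LN PBS, and the T cell list to 222.4 to 241.9 CPM in CIS and 52.7 to 76.1 CPM in PBS. The rDC LN PBS libraries are also the deep ones. Thinned to 3000000 counts they turned the sign of none of these 6 genes' rDC folds, and the part of the marker lists was not tested.

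Levels of different genes can be compared only per length, in TPM, the deposited length-scaled unit. In rDC LN PBS, Cd209a was the highest of the 7 at 434.9 ± 8.64 TPM, followed by Cd209d at 313.1 ± 5.14 TPM, Clec10a at 158.4 ± 6.56 TPM, Mgl2 at 86.0 ± 6.05 TPM, Cd209e at 61.2 ± 3.88 TPM, Cd209b at 18.9 ± 0.324 TPM and Cd209f at 1.44 ± 0.367 TPM (SD, n = 3). In mDC LN CIS, Cd209a at 90.3 ± 4.89 TPM and Mgl2 at 66.4 ± 0.709 TPM led, with Cd209d at 31.1 ± 5.83 TPM (SD, n = 3).

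Averaged over the 4 conditions, 5 of the 7 lectin genes were lower in mDC than in rDC. This comparison was tested, in 12 mDC against 12 rDC libraries, with edgeR's quasi-likelihood test and Benjamini-Hochberg adjustment over all genes. It called 74.4% of all genes, 38.9% as lower, so a call here is common. The median of the 7 was -2.09, against -0.06 over all genes.

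Clec10a had the largest difference, at 6.28 ± 5.45 CPM in mDC and 142.1 ± 30.8 CPM in rDC (SD, n = 12 each, log2 -4.85 ± 0.11, adjusted p = 3.49e-26 by edgeR). Cd209d followed at 8.24 CPM in mDC and 119.4 CPM in rDC (log2 -4.19 ± 0.078, adjusted p = 7.8e-28), then Cd209a at 33.5 CPM in mDC and 271.9 CPM in rDC (log2 -3.67 ± 0.049, adjusted p = 2.27e-31). Cd209e stood at 10.3 CPM in mDC and 39.0 CPM in rDC (log2 -2.09 ± 0.088, adjusted p = 6.12e-19). In these 4 genes every mDC library lay below every rDC library. Mgl2 stood at 25.3 CPM in mDC and 52.9 CPM in rDC (log2 -1.68 ± 0.061, adjusted p = 1.56e-20), and its ranges overlapped.

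Cd209b averaged 16.4 ± 9.88 CPM in mDC and 13.9 ± 5.27 CPM in rDC (SD, n = 12 each), a fitted log2 difference of 0.00 (adjusted p = 1.0 by edgeR). That mean joins opposite values by node, 0.85 and 0.89 in TDLN CIS and TDLN PBS, and -0.97 and -0.76 in LN CIS and LN PBS. Cd209f, near the detection limit, did not pass (log2 0.56 ± 0.37, adjusted p = 0.18 by edgeR).

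The fitted difference between the dendritic cell types was smallest in size in LN CIS for Cd209a, Cd209d, Cd209e, Mgl2 and Clec10a. For Cd209a the log2 difference of mDC over rDC was -5.16 in TDLN CIS, -3.88 in TDLN PBS, -1.42 in LN CIS and -4.23 in LN PBS. For Mgl2 it was -2.45, -2.08, 0.49 and -2.70 in the same order, so that LN CIS was the single condition with a higher level in mDC. For Clec10a the nearest value was -2.99 in LN CIS and the farthest -5.95 in TDLN PBS. These within-condition values use the contrasts that chose the genes and carry no test.

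Other markers separate the 2 dendritic cell types as well, which was not tested for its part in these values. The monocyte list summed to 21.8 to 60.2 CPM in mDC and 739.0 to 1085.5 CPM in rDC, and the B cell list to 151.4 to 438.8 CPM in mDC and 1638.1 to 3579.8 CPM in rDC.

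**Figure D3:**
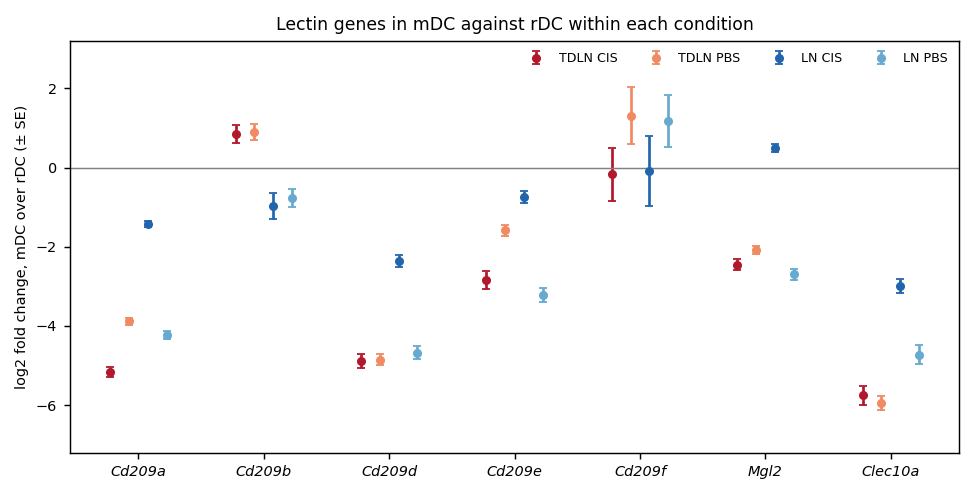
Fitted log2 difference of mDC over rDC (± SE, 3 against 3 libraries) for each of the 7 lectin genes, in each condition. The LN CIS point is the one nearest to 0 for Cd209a, Cd209d, Cd209e and Clec10a and lies above 0, at 0.49, for Mgl2, and Cd209b lies above 0 in the TDLN and below 0 in the LN.

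Outside the crossed libraries Cd209b, Cd209d, Cd209e and Cd209f were lower in every MSM library than in every SSM library of the same node and treatment. The medullary macrophage list was lower in MSM as well, except in TDLN PBS, and its part was not tested. Cd209b had 6974.2, 6653.5 and 3.49 CPM in SSM TDLN CIS, the 3.49 in the crossed library, against 35.6, 40.1 and 39.6 CPM in SSM TDLN PBS. The LN libraries had 2229.0, 2177.6 and 2242.1 CPM in SSM LN CIS, against 7599.1, 36.1 (crossed) and 7502.3 CPM in SSM LN PBS. Without the crossed libraries the order of the 4 groups was LN PBS, TDLN CIS, LN CIS and TDLN PBS, with no overlap between neighbours.

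The fitted log2 fold of cisplatin over PBS for Cd209b in SSM was 6.87 ± 2.1 in the TDLN and -1.19 ± 1.7 in the LN, and without the crossed libraries 7.47 in the TDLN and -1.75 in the LN. Across all genes 23.0% passed in the SSM TDLN, 13.3% in the LN and 21.6% for the difference between nodes. With the crossed libraries the TDLN groups of 3 of 7 genes did not overlap, and the LN groups of 1 of 7. Overlap was not counted over all genes. An unadjusted edgeR p under 0.05 was reached by 6393 of 16886 genes in the TDLN and 4927 in the LN.

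Cd209f, read with its paralog Cd209g, was highest in SSM TDLN CIS, followed by LN PBS, LN CIS and TDLN PBS without the crossed libraries, with no overlap between neighbours, whereas Cd209b was highest in LN PBS. It had 417.0, 432.9 and 0 (crossed) CPM in SSM TDLN CIS, against 4.51, 6.25 and 3.70 CPM in TDLN PBS. In SSM LN CIS it had 43.0, 45.3 and 45.2 CPM, against 332.8, 1.08 (crossed) and 329.1 CPM in LN PBS. Its log2 fold was 5.85 ± 2.0 in the TDLN and -2.32 ± 1.7 in the LN, and 6.43 and -2.87 without the crossed libraries, which sit apart from the other 2 of their group.

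Cd209d had 417.9, 401.2 and 4.47 (crossed) CPM in SSM TDLN CIS, against 35.5, 34.5 and 32.4 CPM in TDLN PBS, and 76.3, 78.7 and 89.3 CPM in LN CIS, against 283.0, 28.9 (crossed) and 279.2 CPM in LN PBS. Cd209e had 106.3, 107.1 and 4.47 (crossed) CPM in SSM TDLN CIS, against 9.02, 9.53 and 9.38 CPM in TDLN PBS, and 47.2, 52.3 and 50.6 CPM in LN CIS, against 86.5, 7.39 (crossed) and 92.5 CPM in LN PBS. Clec10a had 116.2, 108.4 and 18.1 (crossed) CPM in SSM TDLN CIS, against 6.01, 7.38 and 9.38 CPM in TDLN PBS, and 53.0, 56.3 and 56.5 CPM in LN CIS, against 117.9, 19.5 (crossed) and 112.9 CPM in LN PBS. Without the crossed libraries all 3 genes were higher with cisplatin in the TDLN (log2 3.58, 3.52 and 3.88 for Cd209d, Cd209e and Clec10a) and lower in the LN (log2 -1.77, -0.82 and -1.04). With them the TDLN values were 2.99 ± 1.2, 2.95 ± 1.0 and 3.40 ± 0.74, and the LN values -1.28 ± 1.1, -0.32 ± 0.93 and -0.60 ± 0.67.

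Cd209a parted from its neighbours in SSM, being higher with cisplatin in both nodes. It had 13.8, 15.4 and 35.8 (crossed) CPM in SSM TDLN CIS, against 2.25, 1.74 and 2.72 CPM in TDLN PBS (log2 3.28 ± 0.38, or 2.72 without the crossed libraries). LN libraries had 39.9, 38.5 and 35.9 CPM in CIS, against 10.9, 12 (crossed) and 9.03 CPM in PBS (log2 1.83 ± 0.35, or 1.95). Its highest SSM group was LN CIS, whereas Cd209b was highest in LN PBS.

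Mgl2 was low in SSM, with 4.46, 3.21 and 4.47 (crossed) CPM in TDLN CIS, against 1.75, 1.95 and 1.85 CPM in TDLN PBS (log2 1.12 ± 0.23, or 1.03 without the crossed libraries). In the LN it had 13.0, 13.3 and 13.6 CPM in CIS, against 16.3, 12.2 (crossed) and 12 CPM in PBS (log2 -0.04 ± 0.22, or -0.07), and these groups overlapped. The node difference of the cisplatin value was above 0 for 7 of 7 genes in SSM, from 1.16 for Mgl2 to 8.17 for Cd209f, and from 0.77 for Cd209a to 9.31 for Cd209f without the crossed libraries.

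Marker levels also differed between these SSM groups. Marco stood at 642.4 ± 554.3 CPM in SSM TDLN CIS, against 19.6 ± 1.39 CPM in TDLN PBS (SD, n = 3 each), the first with a crossed library at 3.93 CPM. Siglec1 stood at 124.3 ± 88.3 CPM in SSM TDLN CIS, against 11.7 ± 3.26 CPM in TDLN PBS (SD, n = 3 each). Without the crossed libraries the macrophage list summed to 11727.5 to 11891.2 CPM in SSM TDLN CIS and 12360.6 to 12793.5 CPM in TDLN PBS, and to 23635.8 to 24097.0 CPM in LN CIS and 12912.7 to 13108.8 CPM in LN PBS. It was thus slightly lower with cisplatin in the TDLN and higher in the LN, unlike Cd209b. The medullary macrophage list, again without the crossed libraries, had the directions of Cd209b in both nodes. It summed to 3764.1 to 3782.6 CPM in SSM TDLN CIS and 845.8 to 860.5 CPM in TDLN PBS. In the LN it summed to 3945.9 to 4025.9 CPM in CIS and 4525.1 to 4578.7 CPM in PBS. The B cell list summed to 4462.6 to 4562.1 CPM in SSM TDLN CIS and 1179.4 to 1210.2 CPM in TDLN PBS, and to 362.6 to 374.8 CPM in LN CIS and 3418.8 to 3502.1 CPM in LN PBS. In the TDLN the mast cell and basophil list summed to 1882.3 to 1930.4 CPM in CIS and 47.4 to 69.2 CPM in PBS, and the T cell list to 353.8 to 359.0 CPM in CIS and 2330.3 to 2516.4 CPM in PBS. Their part in the lectin values was not tested.

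**Figure D4:**
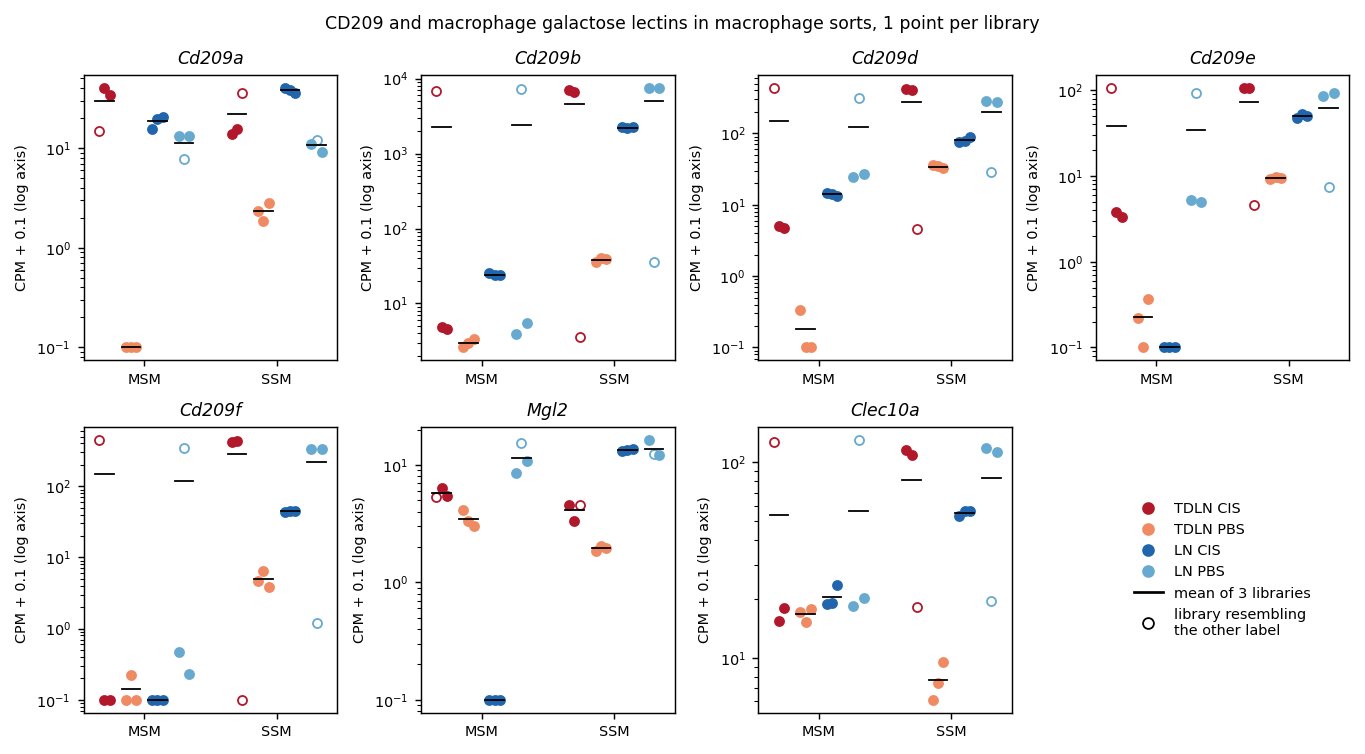
Level of the 7 lectin genes in each macrophage library (CPM with 0.1 added, log axis), by label, node and treatment, with hollow points for the 4 crossed libraries. Hollow points of Cd209b, Cd209d, Cd209e, Cd209f and Clec10a lie nearer to the filled points of the other label than to those of their own in the same node and treatment, and bars give the mean of all 3 libraries.

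Under the MSM label most of these genes were near 0 in TDLN PBS. Cd209a had 14.6 (crossed), 40.4 and 34.3 CPM in MSM TDLN CIS, against 0 counts in all 3 TDLN PBS libraries. With the PBS libraries set to 3 counts each it was at least 78.9-fold higher with cisplatin, a bound that covers counting error only and was 99.1-fold without the crossed library. Marker lists differed between the same groups. Without the crossed library the mast cell and basophil list summed to 3344.4 to 3377.1 CPM in MSM TDLN CIS and 50.1 to 59.8 CPM in TDLN PBS, the macrophage list to 8238.0 to 8404.8 CPM in CIS and 23062.9 to 23457.3 CPM in PBS, and the migratory dendritic cell list to 2033.3 to 2139.4 CPM in CIS and 622.3 to 680.8 CPM in PBS. Their part was not tested. In the LN Cd209a had 15.5, 19.7 and 20.2 CPM in CIS, against 13.1, 7.60 (crossed) and 13.0 CPM in PBS (log2 0.71 ± 0.40, or 0.51 without the crossed libraries). In MSM, 37.1% of all genes passed in the TDLN, 43.4% in the LN and 40.7% for the difference between nodes. The TDLN groups of 5 of 6 fitted genes did not overlap, and the LN groups of 4 of 6. Overlap was not counted over all genes. An unadjusted edgeR p under 0.05 was reached by 7969 of 17002 genes in the TDLN and 8909 in the LN.

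Mgl2 had 5.29 (crossed), 6.30 and 5.36 CPM in MSM TDLN CIS, against 4.04, 3.22 and 2.95 CPM in TDLN PBS (log2 0.75 ± 0.34, or 0.80 without the crossed libraries). In MSM LN CIS it was at 0 counts in all 3 libraries, against 8.47, 15.3 (crossed) and 10.7 CPM in LN PBS, at least 29.6-fold lower (24.7-fold without the crossed library). Cd209e too was at 0 in the 3 MSM LN CIS libraries, against 5.20, 94.1 (crossed) and 4.83 CPM in LN PBS, at least 89.5-fold lower, a bound that fell to 12.9-fold without the crossed library. In MSM LN CIS the macrophage list summed to 1797.4 to 1876.9 CPM, against 13512.2 to 13922.1 CPM in MSM LN PBS, and the B cell list to 4560.1 to 4646.2 CPM, against 470.8 to 479.9 CPM in MSM LN PBS without its crossed library. The part of this marker shift was not tested.

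Crossed libraries decided the other MSM values. Cd209b had 6749.9 (crossed), 4.78 and 4.49 CPM in MSM TDLN CIS, against 2.49, 2.85 and 3.22 CPM in TDLN PBS, and the log2 fold of 9.63 was 0.73 without the crossed libraries. In the LN it had 25.3, 23.6 and 23.7 CPM in CIS, against 3.87, 7309.0 (crossed) and 5.46 CPM in PBS, and the log2 fold turned to 2.37, against -6.65 with them. Its node difference turned to -1.64, against 16.28 with them. Clec10a likewise had 127.1 (crossed), 15.3 and 18.0 CPM in MSM TDLN CIS, against 17.0, 15.2 and 17.6 CPM in TDLN PBS, with a fold of 1.70 that was 0.03 without the crossed libraries. In LN libraries it had 18.7, 19.0 and 23.5 CPM in CIS, against 18.3, 130.3 (crossed) and 20.1 CPM in PBS, with a fold of -1.46 that turned to 0.09.

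Cd209d and Cd209e kept their direction without them. Cd209d had 439.3 (crossed), 4.90 and 4.61 CPM in MSM TDLN CIS, against 0.238, 0 and 0 CPM in TDLN PBS (log2 10.58, or 5.61 without the crossed libraries). In the LN it had 14.3, 14.0 and 13.3 CPM in CIS, against 24.2, 317.8 (crossed) and 26.7 CPM in PBS (log2 -3.14, or -0.88). Cd209e had 107.7 (crossed), 3.73 and 3.24 CPM in MSM TDLN CIS, against 0.119, 0 and 0.268 CPM in TDLN PBS (log2 8.10, or 4.66). Cd209f was at 0 to 0.363 CPM in the 10 MSM libraries that are not crossed and was not fitted within MSM.

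Averaged over the 4 conditions, 4 of the 7 genes were lower in MSM than in SSM by edgeR's quasi-likelihood test over all genes. The test called 30.2% of all genes, 22.5% as lower, and the median of the 7 was -3.08, against -0.14 over all genes. Mgl2 (log2 -2.18 ± 0.17, adjusted p = 6.96e-08), Cd209a (log2 -1.95 ± 0.30, adjusted p = 8.43e-05), Cd209e (log2 -4.89 ± 1.0, adjusted p = 0.00184) and Cd209d (log2 -3.14 ± 0.89, adjusted p = 0.0111) passed. Cd209b (log2 -3.08 ± 1.2, adjusted p = 0.0631), Cd209f (log2 -4.96 ± 2.0, adjusted p = 0.068) and Clec10a (log2 -0.37 ± 0.42, adjusted p = 0.608) did not.

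Without the crossed libraries all 7 passed, with Cd209b at -7.86 (adjusted p = 8.9e-37 by edgeR) and Clec10a at -1.41 (adjusted p = 5.8e-17). That fit called 4130 of 20338 genes as higher in MSM and 7494 as lower, so a call there is common. Leaving out MSM LN PBS 2 alone gave Cd209b -5.33 (adjusted p = 0.00286 by edgeR) and Cd209f -7.15, and leaving out MSM TDLN CIS 1 gave -5.30 and -8.29. Cd209b also passed without SSM LN PBS 2 (-3.22, adjusted p = 0.0465) or SSM TDLN CIS 3 (-3.22, adjusted p = 0.0368), and Cd209f without SSM TDLN CIS 3 (-5.10, adjusted p = 0.0449). Cd209a, Cd209e, Cd209f and Mgl2 have a group at 0 counts, and their fitted average depends on the prior count. Such a group also enters the node difference that chose the genes. For Mgl2 the average turned to 0.33 (adjusted p = 0.0629) without the crossed libraries and the LN CIS groups, an alternative added after the data were seen. In TDLN PBS and LN CIS, which hold no crossed library, the groups of 7 of 7 genes did not overlap. Overlap was not counted over all genes. By another measure, an adjusted p under 0.05 by edgeR, 40.8% and 49.7% of all genes passed. Mgl2 and Clec10a were higher in MSM TDLN PBS (log2 0.87 and 1.13) while the other 5 were lower, as were all 7 in MSM LN CIS.

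A list of 27 other C-type lectin genes, chosen with earlier results of these data known, was tested in each comparison by edgeR's quasi-likelihood test with adjustment over all genes. It holds Cd209g, which shares 16.6% of its 50-base windows with the chosen gene Cd209f and is not independent of that choice. In the mDC LN 4 of 12 tested members rose with cisplatin and 1 fell (median log2 0.45, against -0.01 over all genes, of which 6.15% rose and 4.82% fell). Clec7a, the beta-glucan receptor dectin-1, rose to 161.5 ± 11.2 CPM in LN CIS, against 64.5 ± 19.0 CPM in LN PBS (SD, n = 3 each, log2 1.32 ± 0.13, adjusted p = 1.74e-07 by edgeR). Ly75, the endocytic receptor DEC-205, fell to 268.2 ± 10.8 CPM in LN CIS, against 352.0 ± 45.3 CPM in LN PBS (SD, n = 3 each, log2 -0.42 ± 0.067, adjusted p = 0.000125 by edgeR). Clec4a3, of the dendritic cell immunoreceptor family, rose by 1.71 ± 0.40 (adjusted p = 0.00614 by edgeR), and Clec4n, the dectin-2 gene, by 1.08 ± 0.31 (adjusted p = 0.0238). With deep libraries thinned neither of these 2 passed (adjusted p = 0.1 and 0.153), and Clec4n did not without mDC LN CIS 1 (0.0724), LN CIS 2 (0.11), LN PBS 1 (0.108) or LN PBS 3 (0.0594).

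In the mDC TDLN 4 of 12 rose and 1 fell (median log2 0.22, against -0.01 over all genes, of which 14.1% rose and 13.2% fell). Mrc2, a collagen receptor, rose to 11.0 ± 0.371 CPM in TDLN CIS, against 4.34 ± 0.872 CPM in TDLN PBS (SD, n = 3 each, log2 1.49 ± 0.22, adjusted p = 3.05e-05 by edgeR). Clec7a rose by 0.64 ± 0.12 (adjusted p = 0.000457), so that dectin-1 passed in both nodes, with a difference between nodes of -0.68 ± 0.18 (adjusted p = 0.0122). Clec4n rose by 0.84 ± 0.26 (adjusted p = 0.0165) and Cd207, the langerin gene, fell by 0.56 on the log2 scale (adjusted p = 0.000655). With deep libraries thinned these last 2 gave adjusted p = 0.21 and 0.238, and Clec4n did not pass without the low-count filter (0.132), mDC TDLN CIS 1 (0.0899) or TDLN CIS 2 (0.108). For the difference between nodes 1 of 12 was above 0 and 3 were below (median -0.29, against -0.01 over all genes, of which 8.43% were above and 7.17% below).

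In the rDC LN 4 of 18 tested other lectins passed, each lower with cisplatin (median log2 -0.29, against 0.01 over all genes, of which 10.7% rose and 7.17% fell). Clec9a, a receptor for dead cells on type 1 dendritic cells, fell to 35.7 ± 3.45 CPM in LN CIS, against 60.9 ± 1.39 CPM in LN PBS (SD, n = 3 each, log2 -0.69 ± 0.12, adjusted p = 0.000749 by edgeR). Clec4b1, known from dendritic cells, fell by 1.15 (adjusted p = 0.00133) and Clec5a, a myeloid activating receptor gene, by 0.98 (adjusted p = 0.0154), and with deep libraries thinned these gave adjusted p = 0.0847 and 0.247. Clec5a also did not pass without rDC LN CIS 3 (0.0552), LN PBS 1 (0.0512) or LN PBS 3 (0.0611). In the rDC TDLN, where 0.399% of all genes rose and 0.613% fell, 1 of 18 passed, Clec5a, higher at 6.26 ± 0.452 CPM in CIS, against 2.50 ± 0.75 CPM in PBS (SD, n = 3 each, adjusted p = 0.0429 by edgeR), a call lost when any 1 of 10 of the 12 libraries was left out (adjusted p of 0.268 without rDC TDLN PBS 1), and also under DESeq2 (0.0551), without the low-count filter (0.107), with the replicate block (0.0938) and with deep libraries thinned (0.454). For the difference between nodes 5 of 18 passed, each above 0 (median 0.49, against -0.02 over all genes, of which 2.62% were above and 2.70% below).

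Between mDC and rDC 4 of 19 other lectins were higher and 14 lower (median -1.66, against -0.06 over all genes, of which 35.6% were higher and 38.9% lower). Ly75 (log2 3.24 ± 0.048, adjusted p = 2.57e-30), Mrc2 (2.13 ± 0.22, adjusted p = 6.24e-10) and Cd207 (0.74 ± 0.079, adjusted p = 1.55e-09) were higher in mDC by edgeR. Clec4g, a liver and node sinus lectin gene (-4.02 ± 0.21, adjusted p = 9.97e-17), Clec9a (-3.97 ± 0.098, adjusted p = 9.76e-25) and Fcer2a, the low-affinity IgE receptor gene that the B cell list also holds (-3.11 ± 0.051, adjusted p = 2.89e-29), were lower.

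In the SSM TDLN 2 of 21 tested other lectins rose with cisplatin and 3 fell (median log2 0.21, against 0.03 over all genes, of which 13.0% rose and 9.95% fell), and without the crossed libraries 10 of 22 rose and 7 fell. Over all genes, 6096 of 17632 rose and 6444 fell without those libraries, so a call is common in that fit. Cd207 (log2 -4.46 ± 1.0, adjusted p = 0.0185) and Clec9a (-3.75 ± 1.1, adjusted p = 0.0365) fell by edgeR. The first was lost without SSM TDLN CIS 1 (0.0603) or any of the 3 TDLN PBS libraries (0.0526 to 0.0629), the second without any 1 of 8 libraries or with the replicate block (0.0524). Without the crossed libraries both passed, at -3.85 and -3.16 (adjusted p = 3.26e-08 and 1.13e-07 by edgeR). In the SSM LN 5 of 21 rose and 2 fell (median 0.07, against -0.04 over all genes, of which 5.85% rose and 7.42% fell), and without the crossed libraries 9 of 22 rose and 8 fell. Over all genes, 5308 of 17632 rose and 5266 fell without those libraries. Clec4a1, of the dendritic cell immunoreceptor family, rose to 160.8 ± 9.0 CPM in LN CIS, against 37.8 ± 12 CPM in LN PBS (SD, n = 3 each, log2 2.07 ± 0.24, adjusted p = 0.00109 by edgeR). Clec4b1 (3.40 ± 0.69, adjusted p = 0.0114, lost without SSM LN CIS 1 or SSM LN PBS 3 at 0.0513 and 0.0502) and Clec4a3 (1.49 ± 0.40, adjusted p = 0.0359, lost without any 1 of 7 libraries and, at 0.0529, with the replicate block) rose too, and Fcer2a fell (-4.10 ± 0.97, adjusted p = 0.0219, lost without any 1 of 5 libraries and, at 0.0617, with the replicate block). Without the crossed libraries Clec4b1, Clec4a3 and Fcer2a passed, at 3.76, 1.88 and -4.61 (adjusted p = 2.05e-11, 6.54e-09 and 9.29e-18 by edgeR). The B cell list, which holds Fcer2a, was also lower in SSM LN CIS than in LN PBS, as given above, and its part was not tested. For the difference between nodes 4 of 21 were above 0 and 4 below (median 0.67, against 0.12 over all genes, of which 13.4% were above and 8.21% below).

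In the MSM TDLN 5 of 20 rose and 2 fell (median 0.92, against 0.19 over all genes, of which 25.6% rose and 11.5% fell), or 10 and 6 without the crossed libraries. Over all genes, 7648 of 18374 rose and 5026 fell without those libraries. Clec4a2, of the same family, stood at 34.8 ± 4.5 CPM in CIS and 8.30 ± 0.68 CPM in PBS (SD, n = 3 each, log2 2.09 ± 0.33, adjusted p = 0.000968 by edgeR), and Clec4a1 rose by 1.49 ± 0.25 (adjusted p = 0.00125). Fcer2a rose (4.35 ± 1.3, adjusted p = 0.0254, or 0.109 and a fold of 2.29 without MSM TDLN CIS 1, and lost without any TDLN PBS library and, at 0.0682, with the replicate block), and Clec5a fell (-0.59 ± 0.16, adjusted p = 0.0167, or 0.0535 without MSM TDLN CIS 3 and 0.0686 without the low-count filter). Without all crossed libraries Fcer2a and Clec5a passed, at 2.29 and -0.48 (adjusted p = 5.65e-12 and 0.00111 by edgeR). The B cell list, which holds Fcer2a, then summed to 636.8 to 676.2 CPM in MSM TDLN CIS and 473.6 to 495.9 CPM in TDLN PBS. Its part was not tested. In the MSM LN 1 of 20 rose and 12 fell (median -2.55, against -0.15 over all genes, of which 16.6% rose and 26.8% fell), or 3 and 15 without the crossed libraries. Over all genes, 6128 of 18374 rose and 7474 fell without those libraries. Clec4d, a receptor gene for mycobacterial glycolipid, was at 0 counts in LN CIS and at least 34.0-fold lower (adjusted p = 8.85e-05), Clec4e, the mincle gene, fell by 3.22 (adjusted p = 0.00251) and Clec4a1 by 2.94 (adjusted p = 2.32e-05). Ly75 rose (1.13 ± 0.37, adjusted p = 0.0298, lost without any 1 of 5 libraries). Its fold was 1.18 without the crossed libraries (adjusted p = 6.76e-08 by edgeR). For the difference between nodes 13 of 20 were above 0 and 1 below, where 31.1% of all genes were above and 9.64% below. Markers moved beside these values. The macrophage list summed to 1797.4 to 1876.9 CPM in MSM LN CIS and 13512.2 to 13922.1 CPM in LN PBS. Without the crossed library the neutrophil list went to 93.3 to 95.5 CPM in LN CIS, against 4887.2 to 5039.9 CPM in LN PBS. The B cell list went to 4560.1 to 4646.2 CPM, against 470.8 to 479.9 CPM. Their part in the lectin values was not tested.

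Between MSM and SSM 1 of 23 was higher and 13 lower (median -1.26, against -0.14 over all genes, of which 7.72% were higher and 22.5% lower). Ly75 was higher (0.63 ± 0.21, adjusted p = 0.0306, or 0.063 without MSM TDLN CIS 2 and 0.0521 without SSM LN PBS 1). Clec4b1 (-4.70 ± 0.71, adjusted p = 0.000135, or 1.0 without SSM TDLN CIS 3 or without the crossed libraries), Mrc1, the CD206 mannose receptor gene (-3.53 ± 1.3, adjusted p = 0.0397, lost without any 1 of 20 libraries), and Clec4d (-2.22 ± 0.36, adjusted p = 0.000146, turning to 1.07 without the crossed libraries and the LN CIS groups) were lower by edgeR. Without the crossed libraries Ly75 and Mrc1 passed, at 0.97 and -8.43 (adjusted p = 1.21e-12 and 9.31e-24 by edgeR).

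Over the 24 libraries of a table some genes had patterns close to the lectins. The correlations of log2 CPM below are descriptions, since the libraries share groups, depth and labels. In macrophages the 3 genes most like Cd209b among 11614 were Mrfap1 (r = 0.977), Cbr2 (r = 0.975) and Kcnk13 (r = 0.972), and those most like Cd209f were Nkpd1 (r = 0.993), Cox4i2 (r = 0.992) and Cbr2 (r = 0.989), so that Cbr2 is shared. Those nearest to Cd209d were Kifc3 (r = 0.995), Prcp (r = 0.97) and Ppp5c (r = 0.962), and those nearest to Cd209e were the endotoxin receptor gene Tlr4 (r = 0.981), Trpv4 (r = 0.978) and Adgrg1 (r = 0.975). Cd209a had Fam49a (r = 0.957), Tmem18 (r = 0.954) and Trpm4 (r = 0.949), Mgl2 had Brd3 (r = 0.976), Mapkapk2 (r = 0.962) and Cd300ld (r = 0.953), and Clec10a had Slc25a10 (r = 0.982), Aldh3b1 (r = 0.976) and Trim47 (r = 0.966).

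In dendritic cells, among 11646 genes, Cd209a had Plbd1 (r = 0.983), the transcription factor gene Klf4 (r = 0.982) and Fosb (r = 0.981), and Cd209d had Plekho2 (r = 0.992), Plbd1 (r = 0.991) and Napsa (r = 0.99). Cd209e had Rasgef1b (r = 0.962), the endotoxin co-receptor gene Cd14 (r = 0.961) and Fcgr2b (r = 0.956). Mgl2 had Mmp12 (r = 0.961), Rin3 (r = 0.947) and Chn2 (r = 0.942), and Clec10a had Kctd10 (r = 0.992), Itgb2 (r = 0.985) and Scamp4 (r = 0.984). Cd209b had no neighbour as close, with Fryl (r = 0.835), Kdm5c (r = 0.823) and Cnot1 (r = 0.812).

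Among the lectins themselves, Cd209b went with Cd209f (r = 0.97) and Cd209d (r = 0.89) in macrophages and less with Cd209a (r = 0.34). In dendritic cells Cd209a went with Cd209d (r = 0.98) and Mgl2 (r = 0.92), Cd209d with Clec10a (r = 0.97), and Cd209b ran against Mgl2 (r = -0.53) and Cd209a (r = -0.34).

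**Figure D5:**
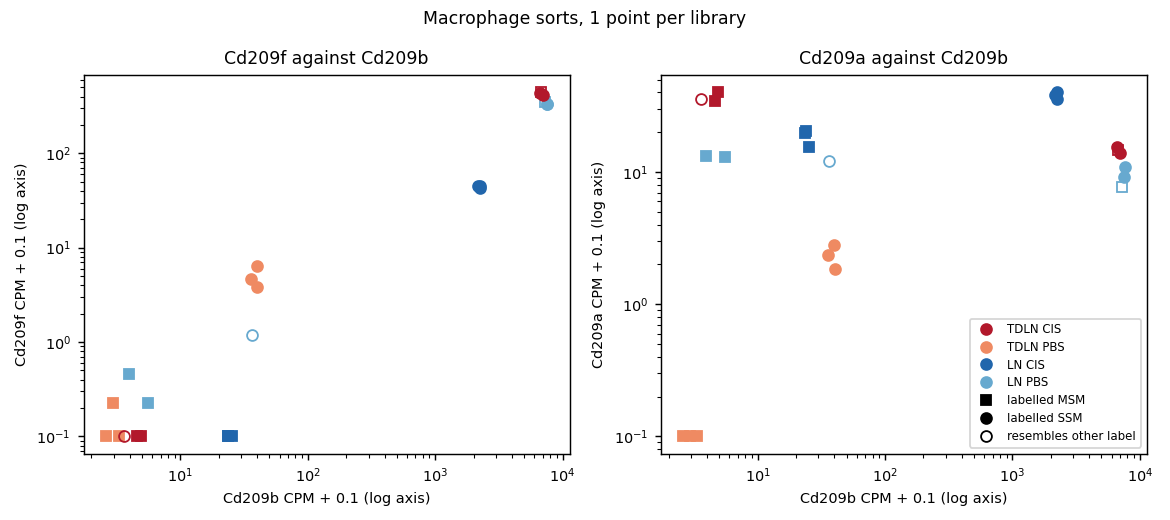
Cd209f (left) and Cd209a (right) against Cd209b in the 24 macrophage libraries (CPM with 0.1 added, log axes), with squares for the MSM label, circles for the SSM label and hollow marks for the crossed libraries. Cd209f is high where Cd209b is high, whereas the libraries with the most Cd209a include those with Cd209b below 5 CPM.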

How the data were processed

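Myeloid cells sorted from lymph nodes were sequenced from polyA RNA with a stranded TruSeq kit, per the labels' protocols. The authors deposited, for macrophages and for dendritic cells, a table of expected counts and a table of TPM over 55487 genes. The submitters' processing notes name STAR, RSEM 1.3.0, DESeq2 1.38.3 and build GRCm38. The expected counts hold whole numbers as deposited. The deposited macrophage TPM has lost its decimals and is used only as a score to match columns, and the dendritic cell TPM as deposited by the authors. All 48 count columns matched their own TPM column best. Dendritic cell columns named for wild type were read as LN by elimination.

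Genes were filtered with filterByExpr, scaled by TMM and tested with edgeR 4.0.16 in R 4.3.3 (quasi-likelihood, Benjamini-Hochberg over all genes, limit 0.05). 12 libraries of a cell type were fitted with 4 groups, and 24 libraries of a table with 8 groups for comparisons of cell types. The SE is the log2 fold divided by the square root of F. Printed CPM use 1 TMM scaling of all 24 libraries per table, the 2 tables separately, so folds differ slightly from ratios of CPM. Bounds set a group at 0 to 3 counts per library. Alternatives were DESeq2 1.42.0, its size factors, no filter, a replicate block, each library left out, the 4 crossed libraries left out, and deep libraries thinned to 3000000 counts.

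The genes and lists were chosen with earlier results of these data known. In each comparison the lectins to be named were, of those passing with at least 4 CPM, up to 3 per direction with the largest fold, with the settings that end a call given beside it. For each lectin at 4 CPM or more, the 3 most correlated genes were taken.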

Additional observations from a re-analysis of the deposited data

Results flagged for a closer look

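The cisplatin effect of other C-type lectins differed between the nodes, by edgeR's test of the difference itself (TDLN minus LN, adjusted over all genes). In mDC these were Ly75 (log2 0.47, adjusted p = 0.000764), Clec7a (-0.68, adjusted p = 0.0122) and Fcer2a (-0.59, adjusted p = 0.0367). Ly75 did not pass without the low-count filter (0.15, adjusted p = 0.32), Clec7a did not without mDC LN PBS 1 (-0.54, adjusted p = 0.0505) or with deep libraries thinned (adjusted p = 0.119), and Fcer2a did not with thinning (adjusted p = 0.129) or when any 1 of 6 libraries was left out (adjusted p up to 0.161). In rDC they were Clec5a (2.33, adjusted p = 0.00164), Clec4b1 (1.68, adjusted p = 0.00665) and Clec7a (1.07, adjusted p = 0.0107), each lost with deep libraries thinned (adjusted p = 0.0669, 0.119 and 0.0544). In SSM they were Cd209g (8.50, adjusted p = 0.0307), Fcer2a (6.06, adjusted p = 0.0102), Clec4b1 (-7.22, adjusted p = 0.00174), Clec4a1 (-2.73, adjusted p = 0.000749) and Clec12a (-2.29, adjusted p = 0.0259), of which Cd209g and Clec12a were each lost without any 1 of 10 libraries (adjusted p up to 0.0824 and 0.0612), and Cd209g also with the replicate block (adjusted p = 0.0715). Without all crossed libraries Cd209g and Clec12a passed in SSM, at 9.64 and -3.53 (adjusted p = 2.83e-18 and 1.83e-13 by edgeR). Fcer2a belongs to the B cell list. Without the crossed libraries that list summed to 4462.6 to 4562.1 CPM in SSM TDLN CIS and 1179.4 to 1210.2 CPM in TDLN PBS. In the SSM LN it summed to 362.6 to 374.8 CPM in CIS and 3418.8 to 3502.1 CPM in PBS, and its part was not tested. In MSM they were Clec4a2 (4.74, adjusted p = 4.55e-05), Cd209g (adjusted p = 0.0337) and Clec4d (adjusted p = 0.000131), the last 2 with a group at 0 counts and no printed fold. Cd209g in MSM was lost without any 1 of 8 libraries (adjusted p = 0.373 without MSM LN PBS 2) and with the replicate block (adjusted p = 0.0905). Cd209g shares 16.6% of its 50-base windows with Cd209f, which was chosen for this same contrast. Its calls in SSM and MSM are therefore not independent of that choice.

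In some of the 7 genes every cisplatin library of one node lay above all PBS libraries and every one of the other node below, a difference that was not tested because it chose the genes. In mDC this held for Cd209a (-3.25), Cd209e (-2.72) and Mgl2 (-2.84), and in rDC for Cd209a (0.61). The mDC TDLN fold of Mgl2 was small, at -0.19, and turned to 0.21 with deep libraries thinned. In MSM it held for Cd209d (13.73, or 6.49 without the crossed libraries), Cd209e (LN bound of 89.5-fold, or 12.9-fold without the crossed library) and Mgl2 (LN bound of 29.6-fold, or 24.7-fold).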

How the results depend on the processing

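For the 7 genes, 48 of 75 descriptive folds were above 0. No sign turned under DESeq2, its size factors or the replicate block. Without the low-count filter 5 turned, each at most 0.13 in size as reported above. Without the crossed libraries 4 of 39 turned (Cd209b and Clec10a in MSM), and with deep libraries thinned 2 of 36 turned (Mgl2 and Clec10a, mDC TDLN). The replicate numbers did not pair the libraries: same-number deviations correlated above 0.1 in 2, 4, 4 and 3 of 18 pairs in MSM, SSM, mDC and rDC. DESeq2 size factors moved the MSM node median of all genes to 0.45, against 0.58.

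Called members between MSM and SSM were 4, but 2 by DESeq2, where 4 had no adjusted p, and 7 without the crossed libraries. Over all genes that last fit called 4130 as higher and 7494 as lower, of 20338. Without the crossed libraries and the LN CIS groups Mgl2 turned to 0.33 and Clec4d to 1.07. Cd209b between mDC and rDC was -0.02 without the filter, and 0.00 under the block and with thinned libraries (-0.08 to 0.08 with each library left out). Without the crossed libraries the other lectins called were 16 against 7 (MSM TDLN), 17 against 5 (SSM TDLN), 17 against 7 (SSM LN) and 18 against 8 (SSM difference). Calls over all genes rose as well, in the MSM TDLN to 7648 higher and 5026 lower of 18374. In SSM, of 17632, they rose to 6096 and 6444 (TDLN), 5308 and 5266 (LN) and 5924 and 5683 (difference). The block gave 9 against 14 (MSM difference), 3 against 5 (SSM TDLN), 4 against 7 (SSM LN) and 5 against 8 (SSM difference). DESeq2 gave 9 in the SSM TDLN. Thinning gave 3 against 5 in each mDC node, 1 against 4 for the mDC difference, 1 against 4 in the rDC LN and 1 against 5 for the rDC difference. The rDC LN gave 12 without the filter. In the rDC TDLN, DESeq2, the block and thinning gave 0 against 1, with 6, 6 and 5 at an unadjusted p under 0.05.

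With each library left out, counts for the TDLN, the LN and the difference ran 4 to 10, 10 to 16 and 10 to 16 in MSM, 1 to 13, 1 to 10 and 4 to 14 in SSM, 3 to 6, 4 to 5 and 1 to 5 in mDC, and 0 to 4, 2 to 10 and 4 to 9 in rDC. Between MSM and SSM they ran 10 to 17 (members 4 to 6), and between mDC and rDC 17 to 19 (members 5 in each). Depth limits Cd209f in dendritic cells, at under 5 CPM throughout.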
